A study of Homo sapiens with 6 samples.

Results

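The genes described here are 10 members of the interleukin-6 (IL-6) cytokine system and its neighbour IL15, chosen by gene symbol: the cytokine genes IL6, IL11, LIF and IL15, the ligand-binding receptor genes IL6R, IL11RA and IL15RA, and the signalling receptor genes IL6ST, LIFR and OSMR. All 10 were found among the 59050 gene symbols of the count files, and all 10 were among the 17809 genes with enough reads to be tested. The cells were H2122, an established human lung cancer line, in 3 libraries of cells with a SMARCA4 knockout (genotype label SMARCA4 KO) and 3 libraries of the parental line (genotype label WT), all treated with vehicle. SMARCA4 is the gene of BRG1, a motor subunit of SWI/SNF complexes, which move nucleosomes; the question is how the RNA of these 10 genes differs without it. The titles carry the number 1 for every knockout library and the numbers 1, 3 and 6 for the parental ones, without saying what the number marks, so whether the knockout libraries come from 1 clone is not known. The replicate numbers 1 to 3 used below are not these title numbers. Nothing in the labels says that replicates were separate cultures, so each p-value reflects only how far these libraries spread, which may be technical.

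Cytokines of the IL-6 family act through receptors built on a shared signalling chain, gp130, which is encoded by IL6ST. IL-6 and IL-11 first bind their own receptor chain, encoded by IL6R and IL11RA, and then engage pairs of gp130. LIF engages gp130 together with the LIF receptor, and oncostatin M engages gp130 together with either the LIF receptor or the chain encoded by OSMR. The receptors activate JAK kinases and the transcription factor STAT3, and STAT3 induces the inhibitor gene SOCS3. IL15 belongs to another family: the cell that makes it presents it on the IL15RA chain to lymphocytes that carry the receptor chains encoded by IL2RB and IL2RG, and it supports natural killer cells and memory T cells.

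The libraries held between 55120937 and 59917980 reads assigned to genes, so that the limit set by 3 counts lay between 0.0497 and 0.0544 CPM; CPM are counts divided by the library size after TMM scaling, in the usual counts-per-million unit, and this limit covers counting error only. SMARCA4 fell from 260.3 ± 65.2 CPM in the parental group to 21.6 ± 2.93 CPM in the knockout group (SD, n = 3 each; log2 fold change -3.59, adjusted p = 0.000176). On the second principal component (22.9% of the variance) parental replicate 3 lay at 66.6 and the other 5 libraries between -37.2 and 3.7, so the results of the 10 genes, and calls of other named genes that depend on it, are given with and without it. The keratin genes KRT7 and KRT8, markers of simple epithelium, were read in every library, at means of 1343 and 1020 CPM in the knockout group. Both fell, from 2420 and 1656 CPM in the parental group (adjusted p = 0.00308 and 0.0467). Of the 7 epithelial markers tested, 5 fell and none rose, and EPCAM (log2 fold change -2.32), KRT19 (-5.40) and CDH1 (-5.94) fell further than KRT7 and KRT8. Without parental replicate 1 or 2, or with the replicate number as a block, 4 fell. Without parental replicate 3, 7 of 8 fell. PTPRC, the defining gene of blood cells, had 0 reads in all 6 libraries, and the lung lineage factor gene NKX2-1 had at most 17 reads. In the 9 blood cell markers examined, 2 fell, none rose and 3 of the 5 tested did not pass, and their summed level lay between 0.835 and 1.36 CPM in the knockout and between 1.84 and 2.37 CPM in the parental libraries. Fibroblasts are a common source of IL-6, IL-11 and LIF, and of 8 fibroblast markers 2 rose, 1 fell and 1 of the 4 tested did not pass. Their summed level was between 53.7 and 58.4 CPM in the knockout and between 39.4 and 110.1 CPM in the parental libraries. LUM and COL3A1 rose (log2 fold changes 6.18 and 5.00), and PDGFRA had 3 or fewer reads in each group. COL1A1 fell from 64.5 ± 38.7 to 23.5 ± 1.74 CPM (-1.46, adjusted p = 0.0408, and at most 0.137 with 1 library left out). The part of these fibroblast markers in the results was not tested. In bulk RNA of this kind, fewer cells of a type and less RNA per cell cannot be told apart.

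Of the 10 genes, 3 rose in the knockout: IL15 4.35-fold, OSMR 2.37-fold and LIF 1.94-fold. None fell, and 7 did not pass at an adjusted p of 0.05 by edgeR's quasi-likelihood test. Over all genes tested 27.6% passed, 13.3% rising and 14.3% falling. In 6 of the 10 genes every knockout library was above every parental one, in none below, and 4 overlapped; of all genes tested 27.0% were higher and 22.8% lower without overlap, 49.8% in either direction. The median log2 fold change of the 10 genes was 0.36, and that of all genes tested was 0.02. The count depended on parental replicate 3: without it, 5 of the 10 rose, 2 fell and 3 did not pass, while 61.6% of all genes then passed. The genes that joined were IL6ST and IL15RA, which rose, and IL6R and IL11, which fell. IL15, OSMR and LIF passed with each of the 6 libraries left out in turn and in all 7 other settings.

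**Figure D1:**
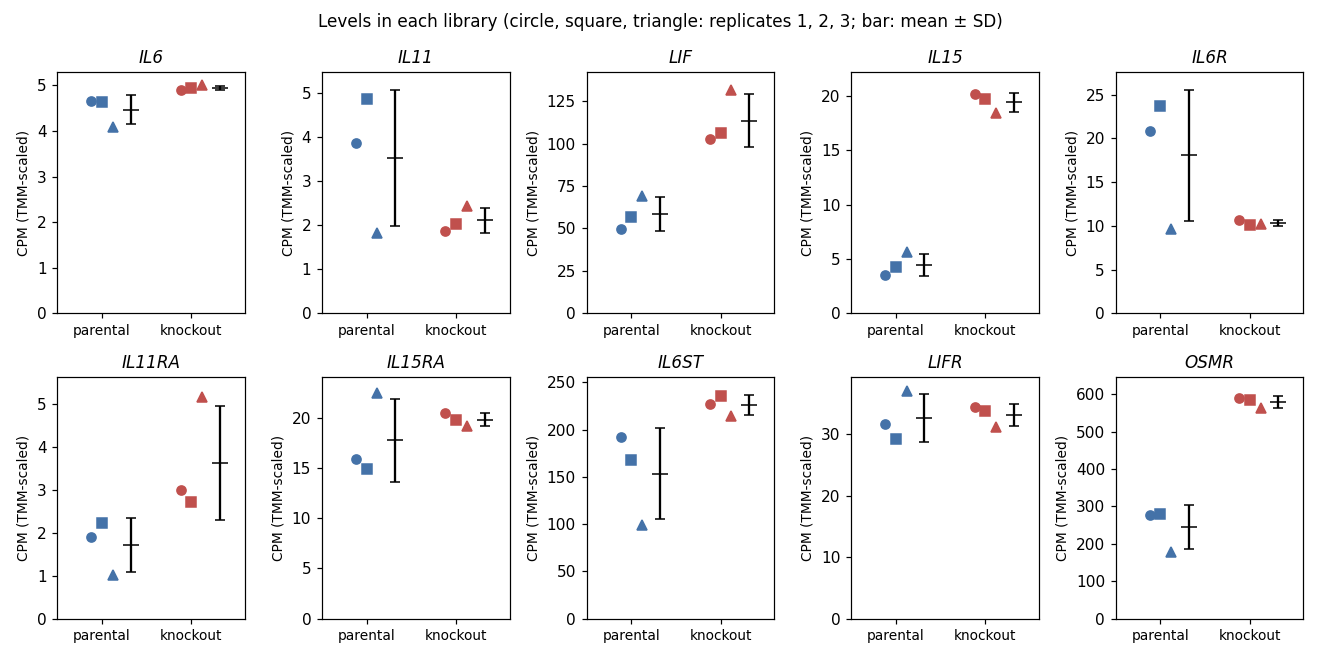
TMM-scaled CPM of the 10 genes in each library (circle, square and triangle for replicates 1, 2 and 3; blue parental, red knockout; black bar, mean ± SD of 3 libraries; every axis starts at 0). IL15, OSMR and LIF are higher in all 3 knockout libraries than in any parental library, and the parental triangle (replicate 3) lies apart from the circle and the square for IL6ST, OSMR, IL6R and IL11.

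The sequences before the start sites of IL6, IL11 and IL6ST are shown because they stand for the inducible cytokine genes and the widely expressed shared chain, and because none of the 3 passed where LIF, IL15 and OSMR rose. They are from RefSeq's promoter table (GRCh38.p14, an update of the hg38 build of the files), which held 8 of the 10 genes. It held no entry for LIF or IL15, so the windows of these rising genes could not be compared. Only bases outside exons annotated in GENCODE 29 are printed, 5′ to 3′ on the gene's strand. Capitals mark matches to any of 8 motifs.

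IL6 (chr7:22726950-22727146, plus strand, 250 to 54 bases before the start): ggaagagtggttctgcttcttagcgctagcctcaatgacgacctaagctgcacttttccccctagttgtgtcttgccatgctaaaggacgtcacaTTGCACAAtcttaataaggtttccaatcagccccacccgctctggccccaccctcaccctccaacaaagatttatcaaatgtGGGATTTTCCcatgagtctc
IL11 (chr19:55370464-55370713, minus strand, 250 to 1 bases before the start): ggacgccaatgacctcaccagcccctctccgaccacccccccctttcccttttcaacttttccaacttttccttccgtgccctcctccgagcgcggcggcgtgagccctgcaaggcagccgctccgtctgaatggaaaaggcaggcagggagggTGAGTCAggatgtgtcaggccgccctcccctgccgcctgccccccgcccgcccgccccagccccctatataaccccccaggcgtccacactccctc
IL6ST (chr5:55994994-55995166, minus strand, 203 to 31 bases before the start): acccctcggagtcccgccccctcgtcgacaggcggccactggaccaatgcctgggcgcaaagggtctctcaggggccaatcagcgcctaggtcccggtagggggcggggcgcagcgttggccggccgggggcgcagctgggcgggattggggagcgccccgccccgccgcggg

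The motifs were searched on both strands in the 250 bases before each start, with no allowance for mismatches: TGANTCA for AP-1, GGG, any 2 bases and TTTCC for NF-kB, TTCNNNGAA for STAT factors, GAAA, any 2 bases and GAAA for IRF factors, TTGNNCAA for C/EBP, TATAAA for the TATA box, CACCTG for the E-box and GGAATG for TEAD. The IL6 window held the NF-kB motif from 73 to 64 bases before the start, a match found in 1.73% of the 35116 windows of the table, and the C/EBP motif from 155 to 148 bases before it, found in 4.90%. The IL11 window held the AP-1 motif from 96 to 90 bases before the start, found in 6.57% of windows. None of these 3 matches overlapped another motif searched. The windows of OSMR and IL6ST held none of the 8 motifs as spelled here, which says only that these letters are not in these windows.

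Among the cytokines, IL15 differed most between the groups. The IL15 gene lies on chromosome 4 (141636599 to 141733987, plus strand, GRCh38). Its level was 20.1, 19.7 and 18.4 CPM in knockout replicates 1 to 3 and 3.55, 4.24 and 5.59 CPM in parental replicates 1 to 3. The groups did not overlap, and the highest parental library was replicate 3. The log2 fold change was 2.12 (SE 0.19, 95% interval 1.65 to 2.59, adjusted p = 0.000667), and 2.68% of the genes tested rose by more. Left out in turn, the 6 libraries gave log2 fold changes between 1.98 and 2.27, the highest without parental replicate 3 (adjusted p = 7.23e-10).

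LIF, which encodes leukemia inhibitory factor, lies on chromosome 22 (30240447 to 30246851, minus strand). Knockout replicates 1 to 3 held 102.9, 106.0 and 131.4 CPM, and parental replicates 1 to 3 held 49.7, 56.7 and 69.3 CPM. Every knockout library was above every parental library, and the third replicate was the highest in each group. LIF rose by a log2 fold change of 0.95 (SE 0.17, 95% interval 0.55 to 1.36, adjusted p = 0.00806). The antisense genes LIF-AS1 and AC004264.1, which share 6.7% of LIF's exon bases, had at most 8 and 19 reads in any library, against at least 2837 for LIF itself; the strand setting of the counting is not given in the sources used here.

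IL6, which encodes interleukin-6, did not pass. On chromosome 7 (22725884 to 22732002, plus strand), it was measured at 4.90, 4.94 and 5.00 CPM in the knockout and 4.66, 4.64 and 4.10 CPM in the parental libraries. The knockout values were all above the parental ones, as they were for 27.0% of all genes tested, but not all libraries were apart by more than counting error. The exact 95% Poisson interval of the lowest knockout library, 4.34 to 5.51 CPM, held the values of 2 parental libraries. The log2 fold change was 0.15 with a 95% interval from -0.18 to 0.48, so a rise of more than 1.39-fold or a fall of more than 1.14-fold lies outside it. Without parental replicate 3 the value was 0.04. Genes on the opposite strand share 20.7% of IL6's exon bases, but AC073072.1 and STEAP1B had at most 15 and 16 reads in any library, against at least 233 for IL6.

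IL11, which encodes interleukin-11, lies on chromosome 19 (55364389 to 55370463, minus strand). Its level was 1.87, 2.01 and 2.43 CPM in the knockout and 3.85, 4.86 and 1.83 CPM in the parental libraries. Parental replicates 1 and 2 were above the knockout libraries, while parental replicate 3 was the lowest of all 6. Accordingly the log2 fold change of -0.74 did not pass (SE 0.37, adjusted p = 0.194), and without parental replicate 3 it was -1.09 and passed (adjusted p = 7.30e-05).

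Other ligand genes of the family ranged from moderate levels to no reads. CLCF1, a ligand gene of the ciliary neurotrophic factor receptor, was measured at 76.0 ± 6.61 CPM after knockout against 39.5 ± 19.3 CPM before, a log2 fold change of 0.94 that did not pass (adjusted p = 0.135). Without parental replicate 3, the lowest of the 6 libraries for this gene, its log2 fold change was 0.54 and passed (adjusted p = 0.000538). CNTF was measured at 0.519 ± 0.0543 and 0.492 ± 0.141 CPM (log2 fold change 0.08, adjusted p = 0.863). ZFP91-CNTF, on the same strand, shares 38.6% of CNTF's exon bases. OSM, the gene of oncostatin M, had 2 reads in the knockout libraries together and 0 in the parental ones. CTF1 had at most 1 read and EBI3 at most 7 in any library. IL27 and IL31 had 0 reads in all 6, which allows up to 0.0544 CPM in a library.

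The log2 fold changes of the chains that only bind a ligand differed in sign, and none passed. IL6R (chromosome 1, 154405193 to 154469450, plus strand) had 10.7, 10.1 and 10.2 CPM in the knockout libraries, and 20.9, 23.7 and 9.60 CPM in the parental. As for IL11, parental replicate 3 lay at the level of the knockout libraries and the other parental libraries well above them. The log2 fold change was -0.81 (SE 0.33, adjusted p = 0.123), and without parental replicate 3 it was -1.16 and passed (adjusted p = 5.28e-08).

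IL11RA (chromosome 9, 34650702 to 34661892, plus strand) was at 3.01, 2.72 and 5.15 CPM in the knockout and 1.89, 2.23 and 1.02 CPM in the parental libraries, with no overlap and the widest relative spread of the 10 genes in the knockout group. Its log2 fold change of 1.08 did not pass with edgeR (adjusted p = 0.0847), and DESeq2 called it (adjusted p = 0.0386). With any one library left out it did not pass, at log2 fold changes from 0.75 to 1.31. Leaving out parental replicate 3 gave 0.77 (adjusted p = 0.0766). Genes on the same strand share 17.4% of IL11RA's exon bases; of the overlapping genes only GALT had reads, between 414 and 570 in each library.

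IL15RA (chromosome 10, 5943639 to 5978187, minus strand) was at 20.5, 19.8 and 19.2 CPM in the knockout and 15.9, 14.95 and 22.5 CPM in the parental libraries. Here parental replicate 3 was the highest of the 6 libraries, so that the groups overlapped. The log2 fold change was 0.16 (95% interval -0.27 to 0.59, adjusted p = 0.56), and without that library it was 0.31 (adjusted p = 0.00111).

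OSMR (chromosome 5, 38845858 to 38945596, plus strand) was the signalling receptor gene that rose. Its level was 590.1, 585.1 and 561.8 CPM in the knockout and 276.7, 279.1 and 178.2 CPM in the parental libraries. The 3 knockout libraries lay close together and all above the parental ones, among which replicate 3 was the lowest. The log2 fold change was 1.24 (SE 0.19, 95% interval 0.77 to 1.71, adjusted p = 0.00528), and 1.01 without parental replicate 3. RICTOR, on the opposite strand, shares 3.2% of OSMR's exon bases and did not pass (log2 fold change -0.18, adjusted p = 0.672; without parental replicate 3, -0.49 and 0.000188).

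IL6ST (chromosome 5, 55935095 to 55994993, minus strand) was at 227.5, 235.7 and 214.3 CPM in the knockout and 192.6, 168.3 and 99.3 CPM in the parental libraries. The groups did not overlap, but the spread among the parental libraries was large, and the log2 fold change of 0.56 did not pass (95% interval -0.03 to 1.15, adjusted p = 0.147). It was 0.28 without parental replicate 3, where it passed (adjusted p = 0.00143).

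LIFR (chromosome 5, 38474963 to 38608354, minus strand), which encodes the LIF receptor, had the smallest change of the 10. It was at 34.5, 33.8 and 31.2 CPM in the knockout and 31.6, 29.3 and 37.0 CPM in the parental libraries, and the groups overlapped. The log2 fold change was 0.02 with a 95% interval from -0.27 to 0.32, which leaves room for a 1.25-fold rise and a 1.21-fold fall. Its sign turned with RLE factors, DESeq2 and no low-count filter, at values of at most -0.04 in size. Leaving out parental replicate 3 gave 0.07 (adjusted p = 0.303).

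**Figure D2:**
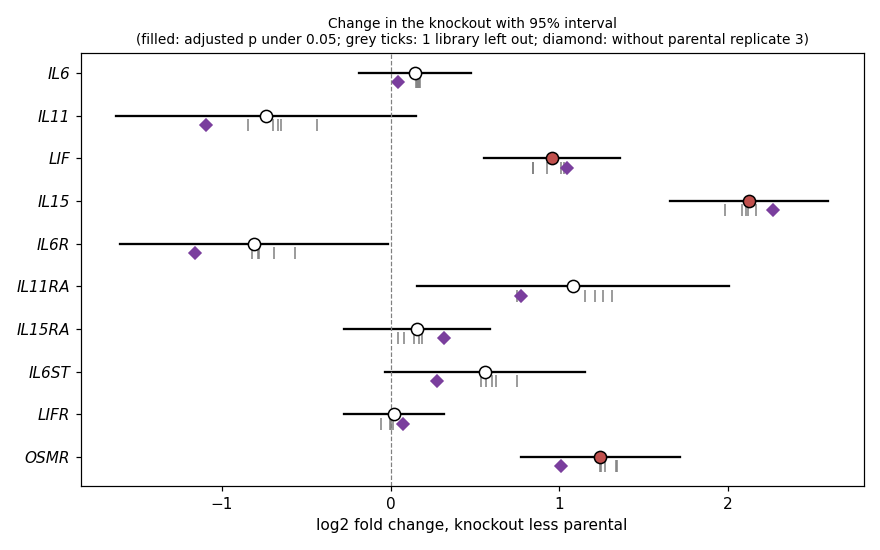
Knockout less parental log2 difference for the 10 genes (circle, with its 95% interval; filled where the adjusted p was under 0.05), with the values when 1 library was left out below each (grey ticks; diamond, without parental replicate 3). IL15, OSMR and LIF lie above 0 throughout, while leaving out parental replicate 3 moves IL6R from -0.81 to -1.16 and IL6ST from 0.56 to 0.28.

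Of the 3 other receptor genes that pair with these chains, IL27RA rose and IL31RA fell. IL27RA, whose product joins gp130 in the interleukin-27 receptor, was at 13.5, 13.3 and 11.99 CPM in the knockout and 3.26, 3.42 and 5.22 CPM in the parental libraries (3.26-fold, log2 fold change 1.70, adjusted p = 0.00249). IL31RA, whose product joins the OSMR chain in the interleukin-31 receptor, was read 6, 2 and 2 times in knockout replicates 1 to 3 and 55, 59 and 34 times in parental replicates 1 to 3 (log2 fold change -3.82, adjusted p = 0.00216). CNTFR had at most 1 read in any library. The RNA of OSMR and that of its partner in the interleukin-31 receptor therefore differed in opposite directions.

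Levels of different genes were ranked only per exon length, as CPM per kilobase of the exons annotated in GENCODE 29. OSMR was the highest of the 10 in both groups, at 80.7 ± 2.11 CPM per kilobase in the knockout and 34.1 ± 8.03 in the parental group. In the parental group it was followed by IL6ST (16.5 ± 5.21) and LIF (14.8 ± 2.50), whose ranges overlapped, and then by IL15RA (4.89 ± 1.13). IL6R (2.80 ± 1.15) spread so widely there that its range overlapped those of LIFR (2.75 ± 0.335), IL6 (2.16 ± 0.154) and IL11, so its place among them is not settled. IL6 was below LIFR without overlap, and IL11 (1.32 ± 0.577), IL15 (0.568 ± 0.132) and IL11RA (0.401 ± 0.146) formed the lower end with each overlapping the next. In the knockout group LIF (28.6 ± 3.94) was above IL6ST (24.3 ± 1.16), a gap closed when only the exons of GENCODE's basic transcripts were counted. IL15 moved from the ninth place to the sixth, at 2.47 ± 0.114 CPM per kilobase, where its range overlapped that of IL6 (2.39 ± 0.0255). With the basic exons IL15 was seventh in the knockout group (2.58 ± 0.119) and below IL6 (2.89 ± 0.0308) without overlap, so the order of IL15 and IL6 depends on the exons counted. In the knockout group IL6R (1.599 ± 0.0515) was below both with either set of exons. Exons that these cells do not use make such values too low for the genes that have them.

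**Figure D3:**
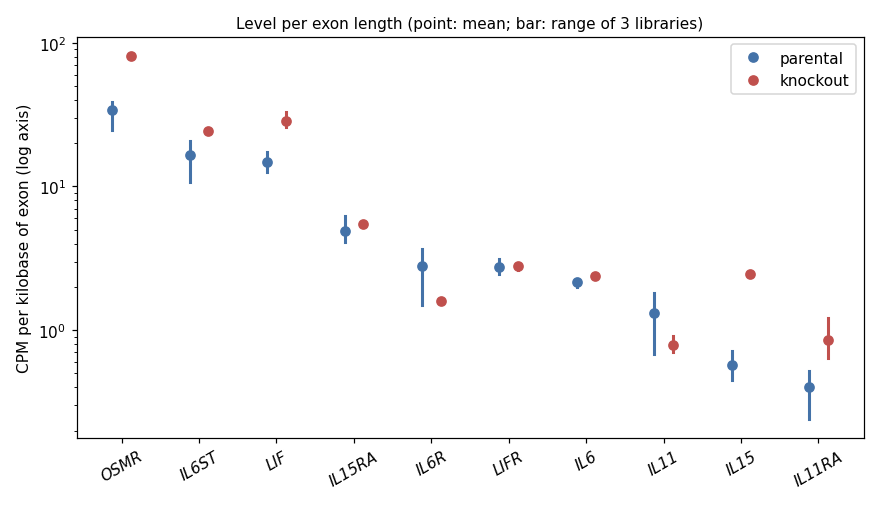
CPM per kilobase of annotated exon (log axis) of the 10 genes, ordered by the parental mean (points, means; bars, range of the 3 libraries; blue parental, red knockout). OSMR leads in both groups, and IL15 rises from 0.568 to 2.47 CPM per kilobase while IL6 and LIFR stay within the range of the other group or close to it.

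Ratios of reads within a library do not depend on the scaling between libraries. The log2 ratio of IL15 to IL15RA reads was -0.02, -0.01 and -0.06 in knockout replicates 1 to 3 and -2.16, -1.82 and -2.01 in parental replicates 1 to 3. The reads of IL15 thus went from well below those of IL15RA to nearly as many, a difference of 1.96 between the group means. These reads are not divided by exon length. Per kilobase of exon IL15 was still below IL15RA in the knockout group, at 2.47 against 5.45 CPM. IL6R to IL6ST was at -4.45 ± 0.0841 in the knockout and -3.13 ± 0.276 in the parental group, a difference of -1.32. For this pair parental replicate 3, at -3.37, lay with the other parental libraries (-3.20 and -2.83), although both genes taken singly stood apart there. LIFR to OSMR differed by -1.24 and OSMR to IL6ST by 0.66. For these 4 of the 5 ratios the groups did not overlap, which gives an exact two-sided permutation p = 0.1, the smallest that 3 libraries against 3 allow, and 0.125 after adjustment over the 5. The ratio of IL11RA to IL6ST overlapped between the groups (difference 0.48, exact permutation p = 0.3). With each library left out in turn all 5 differences kept their sign, and that of IL11RA to IL6ST was 0.16 without knockout replicate 3.

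**Figure D4:**
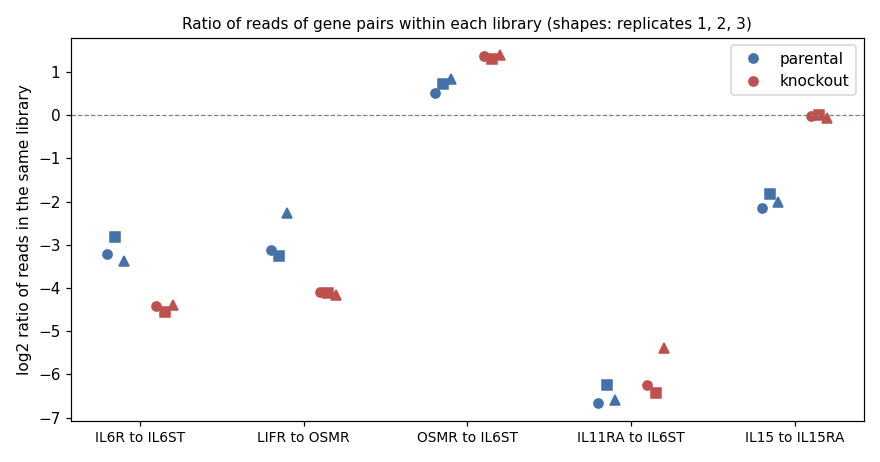
Log2 ratio of the reads of 2 genes in the same library (blue parental, red knockout; circle, square and triangle for replicates 1, 2 and 3). IL15 reaches about the reads of IL15RA in the knockout, at a mean log2 ratio of -0.03 against -1.99 in the parental group, and IL6R to IL6ST is lower in every knockout library than in any parental one. Reads are not divided by exon length, and per kilobase IL15 stays below IL15RA in the knockout (2.47 against 5.45 CPM).

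Beyond the receptors, 108 other genes of the pathway were examined in 9 lists, of which 86 were tested: 10 rose, 19 fell and 57 did not pass, with a median log2 fold change of -0.06. Without parental replicate 3, 26 of 87 rose and 42 fell. Of all genes tested, 13.3% rose and 14.3% fell in the fit to all 6 libraries, and 30.8% rose and 30.8% fell without that library. Of the 11 genes of JAK kinases, STAT factors and adaptors, 1 fell, none rose and 10 did not pass. Without parental replicate 3, 2 rose and 4 fell. The one that fell was STAT3, from 235.9 ± 41.5 to 165.4 ± 2.33 CPM (log2 fold change -0.51, adjusted p = 0.0422). It did not pass when any library other than parental replicate 3 was dropped (adjusted p at most 0.161) or with the replicate number as a block (0.0973). JAK1 did not pass, with 143.2 ± 4.41 CPM after knockout and 130.7 ± 46.2 CPM before (adjusted p = 0.76). JAK2 (log2 fold change 0.32) and TYK2 (-0.01) did not pass either. The sign of JAK1, at 0.13, turned without parental replicate 3, where it passed as a fall of -0.18 (adjusted p = 0.00232).

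Of 13 tested inhibitors of JAK-STAT signalling, 3 rose, 5 fell and 5 did not pass. The count of falls moved: 1 fell without knockout replicate 1, 2 or 3 or parental replicate 2, and 2 fell without parental replicate 1, with upper-quartile factors or with the replicate block. SOCS3, the feedback inhibitor that binds gp130, rose from 17.5 ± 3.41 to 37.8 ± 0.453 CPM (2.16-fold, adjusted p = 0.00348). SOCS6 rose 2.12-fold, from 18.3 ± 3.13 to 38.7 ± 1.26 CPM (adjusted p = 0.00327). PTPN6, the gene of the tyrosine phosphatase SHP-1, fell from 24.4 ± 0.205 to 5.07 ± 0.25 CPM (log2 fold change -2.26, adjusted p = 7.20e-05), and all 3 knockout libraries were far below the parental ones.

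The list of STAT3 and acute phase targets had 27 tested genes: 2 rose, 8 fell and 17 did not pass. Their median log2 fold change was -0.39. Without knockout replicate 2 or 3, 1 rose and 5 fell, without knockout replicate 1, 1 rose and 6 fell, and without parental replicate 3, 8 rose, 18 fell and 1 did not pass. SERPINA1, which encodes alpha-1 antitrypsin, fell from 49.7 ± 19.96 to 1.72 ± 0.0613 CPM (-4.85, adjusted p = 0.000349). LCN2, which encodes the iron-binding defence protein lipocalin-2, fell from 199.8 ± 95.5 to 6.65 ± 0.395 CPM (-4.91, adjusted p = 0.00072). MUC1, a membrane mucin gene, fell from 300.5 ± 222.6 to 10.7 ± 1.71 CPM (-4.82, adjusted p = 0.00238), and its value without parental replicate 3 was -4.08. SERPINA1, LCN2 and MUC1 are also products of differentiated epithelium, and the epithelial markers examined moved with them: 5 of 7 tested fell and none rose, KRT19 from 1344 ± 114.1 to 31.8 ± 0.689 CPM and CDH1 from 341.1 ± 173.9 to 5.56 ± 0.105 CPM. The summed level of the 9 epithelial markers was between 3158 and 3423 CPM in the knockout and between 6932 and 7701 CPM in the parental libraries, and their part in these falls was not tested. SOCS3, the direct feedback target, rose in the same list.

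**Figure D5:**
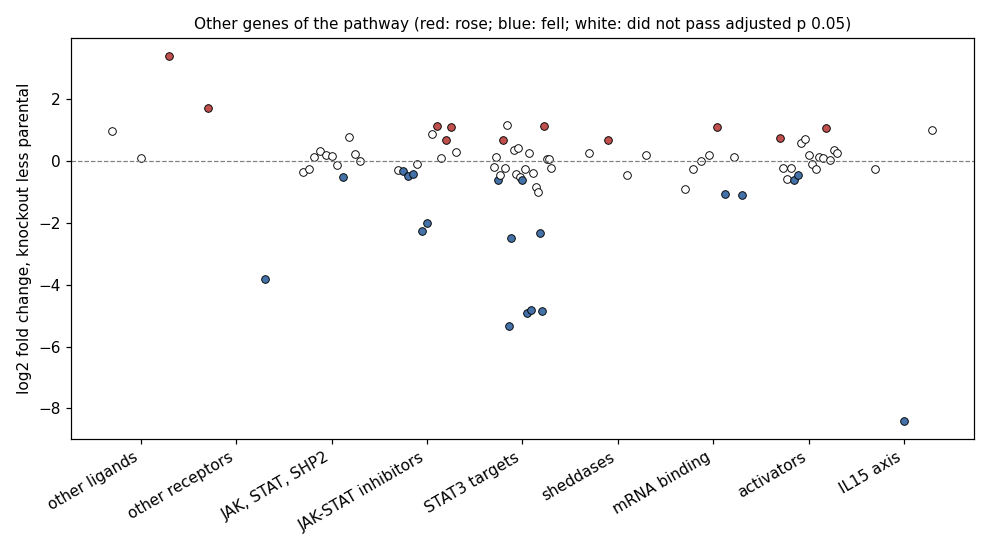
Log2 fold change of each tested gene in the 9 pathway lists (red, rose; blue, fell; white, did not pass at an adjusted p of 0.05). The lists hold genes of both directions, with 10 rising and 19 falling among the 86 genes, and the largest falls are in the STAT3 target and IL15 axis lists.

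The genes of the chains through which IL15 signals had few reads. IL2RB had at most 5 in any library, and IL2RA, the alpha chain gene of the interleukin-2 receptor, had 0 in all 6. IL2RG, the common gamma chain gene, was read 4, 2 and 4 times in the knockout libraries and 19, 22 and 8 times in the parental. It had too few reads to be tested over all 6 libraries, and without parental replicate 3 it was tested and fell (log2 fold change -2.60, adjusted p = 0.000305). AL590764.2, on the same strand, shares 50.8% of IL2RG's exon bases, and how shared reads were counted was not examined. Of the 13 genes in this list 3 were tested. IL7R fell, while JAK3 (log2 fold change 0.99, adjusted p = 0.0626) and IL7 (-0.27, adjusted p = 0.376) did not pass. With DESeq2 1 rose and 1 fell, and without parental replicate 3, 1 rose and 2 fell of 4 tested. IL7R, the interleukin-7 receptor gene, had 1 read over the 3 knockout libraries and 462 over the parental; scaled for depth the ratio was 458 (95% counting interval, 81.7 to 18114). Among the parental libraries replicate 3 held most of them, with 306 reads against 82 and 74. By comparison, IL15 and its presenting chain IL15RA each had between 1086 and 1158 reads in every knockout library, not divided by exon length.

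ADAM17, the gene of the protease that sheds IL6R and other membrane proteins, rose from 116.9 ± 4.85 to 185.2 ± 3.24 CPM (1.58-fold, adjusted p = 0.00295), the only one of the 4 shedding genes tested that passed; without parental replicate 3, 3 rose and 1 fell. Of 8 genes whose products bind cytokine messenger RNAs, 1 rose, 2 fell and 5 did not pass, and without parental replicate 3, 5 fell. ZC3H12A, which encodes the IL6 messenger RNA nuclease regnase-1, rose from 33.4 ± 3.09 to 71.1 ± 6.44 CPM (2.13-fold, adjusted p = 0.00129). ZFP36 and ZFP36L2, genes of the tristetraprolin family that destabilises messenger RNAs rich in AU elements, fell from 60.4 ± 2.71 to 28.9 ± 1.31 CPM and from 109.8 ± 9.45 to 51.2 ± 1.53 CPM (log2 fold changes -1.06 and -1.10). In the list of transcription factors known to act on cytokine genes, 2 of 17 rose, 2 fell and 13 did not pass; without parental replicate 3, 5 rose and 7 fell, and without any other library 1 or 2 rose and none fell. TEAD1 rose 2.07-fold (adjusted p = 0.00116) and ATF2 1.66-fold (0.0163), and IRF2 changed by -0.46 (0.0199). The calls of ATF2 and IRF2 were lost with a library left out, at an adjusted p of at most 0.0737 without knockout replicate 1, 2 or 3 or parental replicate 2 for ATF2, and at most 0.0979 without any library other than parental replicate 3 for IRF2.

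The nearest tested protein-coding genes on each side of the members were compared with them. LIFR and OSMR are each other's neighbours, 237503 bases apart on chromosome 5, and LIFR did not pass where OSMR rose. IL31RA lies 12241 bases from IL6ST and fell, while IL6ST did not pass. Next to IL15, ZNF330 was at a log2 fold change of -0.10 and did not pass (0.23 without parental replicate 3, adjusted p = 0.00391), and INPP4B fell (-1.48, adjusted p = 0.023), though not when any library other than parental replicate 3 was dropped (adjusted p at most 0.0962). CASTOR1, the neighbour of LIF on one side, rose from 0.0805 ± 0.0613 to 0.411 ± 0.0606 CPM (adjusted p = 0.0209, and at most 0.0851 without knockout replicate 1, 2 or 3 or parental replicate 2), and MTMR3 on the other side did not pass (0.09, and -0.24 without parental replicate 3, adjusted p = 0.00129). Both neighbours of IL11 fell: COX6B2 by 2.94 and TMEM238 by 1.51 on the log2 scale (adjusted p = 0.00129 and 0.00154), and they did so also without parental replicate 3 (-2.65 and -1.44). Beside IL6R, ATP8B2 rose (1.96, adjusted p = 0.0369, and at most 0.112 with a library other than parental replicates 2 and 3 left out) and UBE2Q1 did not pass (-0.13). MAP3K1, the other neighbour of IL6ST, fell (-0.62, adjusted p = 0.0265, and at most 0.112 without any one library other than parental replicate 3). The neighbours STEAP1B and TOMM7 of IL6, WDR70 of LIFR, RICTOR of OSMR, GALT and DNAJB5 of IL11RA, and FBH1 and RBM17 of IL15RA did not pass. Without parental replicate 3, where 61.6% of all genes passed, TOMM7, RICTOR, UBE2Q1 and FBH1 passed, besides ZNF330 and MTMR3 given above. TOMM7 rose by 0.34 on the log2 scale (adjusted p = 6.45e-05), while RICTOR (-0.49, adjusted p = 0.000188), UBE2Q1 (-0.22, adjusted p = 0.00055) and FBH1 (-0.16, adjusted p = 0.00715) fell.

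The profiles most like those of the 3 genes that rose were found among 13585 genes with a mean of at least 1 CPM, by the root mean square difference of centred log2 values over the 6 libraries. For IL15 they were APLP1 (0.0814), CYBRD1 (0.0841) and TUBB4A (0.0988), and 38 genes lay within 0.2. The measure adds 0.5 CPM to each value, which draws in low genes: TUBB4A went from 0.11 ± 0.102 to 1.89 ± 0.246 CPM, a fitted log2 fold change of 4.08 against 2.12 for IL15. For OSMR they were KLF13 (0.0364), PCDHA12 (0.0393) and FLVCR2 (0.0429), with 216 genes within 0.2, and for LIF they were C20orf96 (0.0309), AC007566.1 (0.0576) and LINC01232 (0.0674), with 222 genes within 0.2. KLF13, for example, went from 136.4 ± 29.2 to 317.4 ± 15.7 CPM with parental replicate 3 included, and CYBRD1 from 6.53 ± 0.997 to 28.9 ± 1.10 CPM. The profiles share the same 6 libraries and are a description of likeness only.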

How the data were processed

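RNA-seq read counts per gene symbol were deposited by the authors, 1 file per library; per the submitters' processing notes they used TopHat2 2.1.1, HTSeq 0.11.0 and hg38, while their gene annotation, strandedness option and any filtering were not given in the sources used here. Reads in the 5 unassigned classes (13.8% to 15.3% of all reads) were left out of library sizes and tests. Low counts were removed by filterByExpr. After TMM scaling, edgeR 4.0.16 under R 4.3.3 gave a two-sided robust quasi-likelihood test on group alone, with Benjamini-Hochberg adjustment over 17809 genes (threshold 0.05). Standard errors and 95% intervals come from the quasi-likelihood F value. The script was tested on simulated data. The alternatives changed the scaling (RLE, upper quartile), the filter (none, or 1 CPM in 3 libraries), the tool (limma-voom with limma 3.58.1, DESeq2 1.42.0), added the replicate block or left out each library.

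Positions and exon lengths are from GENCODE 29 on GRCh38, matched by symbol. Ratios used reads plus 0.5, and profiles log2(CPM + 0.5). The 10 members and all lists were chosen with earlier results of these data known. Named genes were the members, SMARCA4, the other ligands (1 is not reported here) and receptors, JAK1, JAK2, TYK2, STAT3, SOCS3, IL2RA, IL2RB and IL2RG, up to 3 passing genes per list with the smallest adjusted p, the nearest tested protein-coding genes and the 3 most alike profiles; other genes named as markers were chosen after their values were seen. The 6 endothelial markers examined gave 1 rise, no fall and 2 tested genes that did not pass.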

Additional observations from a re-analysis of the deposited data

How the results depend on the processing

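The rises of IL15, OSMR and LIF and the fall of SMARCA4 held in every setting run. Counts of calls rose most without parental replicate 3: with 1 library left out, the members rising numbered 3 to 5 and those falling 0 to 2, the pathway genes 7 to 26 rising and 10 to 42 falling, and all genes 1221 to 5665 rising and 1471 to 5660 falling, each upper end being the fit without that library. The replicate numbers are not the title numbers, so a block on them cannot show whether libraries were paired. Same-numbered libraries of the 2 groups correlated at -0.11, 0.01 and -0.11 in their deviations. With the replicate block 12 pathway genes fell, 1378 genes rose and 1662 fell, while 3 members still rose. Directions that turned belonged to genes that did not pass in the fit to all 6 libraries. LIFR was at -0.0279 with RLE factors and with DESeq2 and at -0.0389 with no low-count filter, and between -0.0555 and 0.0738 with 1 library left out. WDR70 was at -0.0267 with RLE factors and with DESeq2 and at -0.0383 with no low-count filter, and between -0.0256 and 0.0405 with 1 library left out. TYK2 was at 0.0343 with upper-quartile factors and 0.0054 with at least 1 CPM in 3 libraries, and GALT at 0.0036 with upper-quartile factors. With 1 library left out, TYK2 lay between -0.0789 and 0.0376, GALT between -0.1613 and 0.0287, CNTF between -0.1205 and 0.2533, TOMM7 between -0.0437 and 0.3375, RICTOR between -0.4922 and 0.0045, JAK1 between -0.1837 and 0.283, MTMR3 between -0.2368 and 0.2493 and ZNF330 between -0.2664 and 0.2343. JAK1, MTMR3 and ZNF330 turned without parental replicate 3 and passed there. The cause of these changes was not tested. At 3 counts per library as the limit, no change of OSM, IL27, IL31, CTF1, CNTFR, IL2RA or IL2RB was detectable at this depth.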
